A study of Mus musculus with 4 samples.

Results

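Genes of TGF-beta, BMP and activin signalling were measured in the dentate gyrus of unshocked mice, the hippocampal subfield whose main neurons are granule cells. The members were the probe sets with 1 annotated gene symbol whose name begins as those of the TGF-beta, BMP, GDF, activin or inhibin subunits, the activin, BMP and TGF-beta receptors, or the Smads. This rule, which used names and no measured value, gave 55 of the 12488 probe sets of the array, for 43 of 8251 genes. By role they were 21 ligand genes, 11 receptor and co-receptor genes, 7 Smad genes and 4 genes that match by name alone (Bmp1, Bmp2k, Tgfb1i1 and Tgfbi).

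The 4 samples were total RNA of young male C57BL/6J mice that were handled by an experimenter and received nothing else. They were taken at 1, 2, 4 and 6 h, counted from the last shock of a parallel set of mice, with 1 array for each hour. The shocked mice were not analysed here, and no genotype, transgene or drug is named for the controls. How many mice each sample holds and at what time of day it was taken are not given here. An hour cannot be told apart from the array that stands for it. The question that the design allows is how far these genes differ between handled controls of different hours. Array intensities are given below in the order 1, 2, 4 and 6 h.

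Ligands of this family are secreted as dimers, many of them in a latent or inhibitor-bound form. They bind a pair of type II and a pair of type I receptors, which are serine/threonine kinases of the cell surface. The type I receptor then phosphorylates receptor-regulated Smads. Smad2 and Smad3 carry TGF-beta and activin signals, and Smad1, Smad5 and Smad9 carry BMP signals. The phosphorylated Smads join Smad4 and act on transcription in the nucleus, while Smad6 and Smad7 oppose the receptors. In the hippocampus BMP signals hold neural stem cells of the dentate gyrus in quiescence, activin A is induced by neuronal activity, and TGF-beta is made by glia and vascular cells.

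The upstream sequences of 3 ligand genes introduce the members whose values spanned over 2-fold, since the 250 bases before their RefSeq start sites could be read from assembly GRCm38.p6. The array itself names no genome build. Each is written from 5′ to 3′ on the gene's own strand, with capitals for matches to the motifs searched.
Tgfb2, chr1:186705990-186706239, minus strand: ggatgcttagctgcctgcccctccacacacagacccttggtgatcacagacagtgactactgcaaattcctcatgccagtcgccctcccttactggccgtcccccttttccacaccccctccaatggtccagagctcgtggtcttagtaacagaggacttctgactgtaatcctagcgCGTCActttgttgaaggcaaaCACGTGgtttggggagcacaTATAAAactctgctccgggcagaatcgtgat
Inhba, chr13:16011601-16011850, plus strand: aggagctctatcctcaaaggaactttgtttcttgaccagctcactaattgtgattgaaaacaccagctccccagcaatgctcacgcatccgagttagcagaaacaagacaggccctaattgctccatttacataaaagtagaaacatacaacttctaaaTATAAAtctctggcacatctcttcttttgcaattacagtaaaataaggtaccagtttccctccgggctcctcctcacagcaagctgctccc
Inhbc, chr10:127370549-127370798, minus strand: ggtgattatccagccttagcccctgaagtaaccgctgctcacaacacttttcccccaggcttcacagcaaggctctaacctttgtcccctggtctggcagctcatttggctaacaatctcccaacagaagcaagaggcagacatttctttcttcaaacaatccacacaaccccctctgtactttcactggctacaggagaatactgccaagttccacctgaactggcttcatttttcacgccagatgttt
The Tgfb2 stretch holds, in reading order, the TGACG core of the cyclic AMP response element on its opposite strand (CGTCA), the E-box CACGTG and a TATA box, TATAAA. These begin 72, 51 and 31 bases before the start site. The Inhba stretch holds TATAAA 91 bases before the start, and the Inhbc stretch holds no match to the 7 motifs searched on both strands. The other motifs were the Smad binding element GTCTAGAC, the GC-rich BMP element GGCGCC, the full cyclic AMP response element TGACGTCA, which contains the TGACG core, and the GC box GGGCGG.

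Over 8408 upstream stretches of genes on the array, TATAAA was found in 8.93%, CACGTG in 8.22% and TGACG in 24.3%. RefSeq entries were found for 30 of the 43 member genes, with 35 stretches, of which 14.3% held TATAAA, 11.4% CACGTG and 11.4% TGACG. The GC box GGGCGG lay in 65.7% of the member stretches and in 52.8% of those of array genes, and GGCGCC in 17.1% and 15.3%. GTCTAGAC and TGACGTCA were found in 0 member stretches and in 0.25% and 2.21% of those of array genes. A match describes letters in the window and shows no binding.

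Of the 43 genes, 26 read in the lower part of the range of the array. A gene was tested if the mean log2 intensity of its brightest probe set was at or above 7.41, an intensity of 170.4, after values under a floor of 38.3 were set to it. Past this filter were 17 of 43 member genes (39.5%), against 60% of all genes with a probe set. They were 7 ligand genes, 3 receptor genes, 5 Smad genes and 2 others, and none of their used values lay under the floor. Of the 26 genes under the filter, 19 had at least 1 value under the floor on the probe set used.

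Across the 17 tested genes no linear trend with the hour was called. The trend of log2 intensity on the hour, fitted with limma over all 4951 tested genes, gave 0 members with a Benjamini-Hochberg adjusted p under 0.05, where the share of all tested genes was 0%. No member (0 of 17) had an unadjusted p below 0.05, a mark that 2.02% of all tested genes passed. Slopes ran from −0.15 to 0.13 log2 per h with standard errors of 0.07 to 0.12 (n = 4), 10 of them positive and 7 negative. Taken over all these genes, the bounds of their 95% intervals reached from −0.37 to 0.30 log2 per h. With 4 arrays, slopes inside a gene's own interval were not excluded for that gene. The median slope was 0.02 for the members and −0.00 for all tested genes. A straight line does not test for a peak or dip at 2 or 4 h. Smad4, for example, spanned 2.07-fold between hours with a slope of 0.00.

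Between single arrays the members spanned 1.22-fold to 2.32-fold from lowest to highest hour. Over 2-fold were 5 of 17 (29.4%), namely Tgfb2, Inhba, Inhbc, Acvrl1 and Smad4, against 15% of all tested genes. Among the 2593 tested genes with a mean log2 within the members' range of 7.83 to 9.70 the share was 16.6%. The median span was 1.77-fold for the members, 1.47-fold for all tested genes and 1.53-fold within that range. With 1 array per hour no test bears on these shares. The count of 5 fell to 3 without the 2 h sample, to 1 (Tgfb2) without the 4 h sample and to 2 without the 6 h sample, and was 4 without the 1 h sample. Over all tested genes the count of 741 fell to 513, 518, 377 and 529 without the 1, 2, 4 and 6 h sample.

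**Figure D1:**
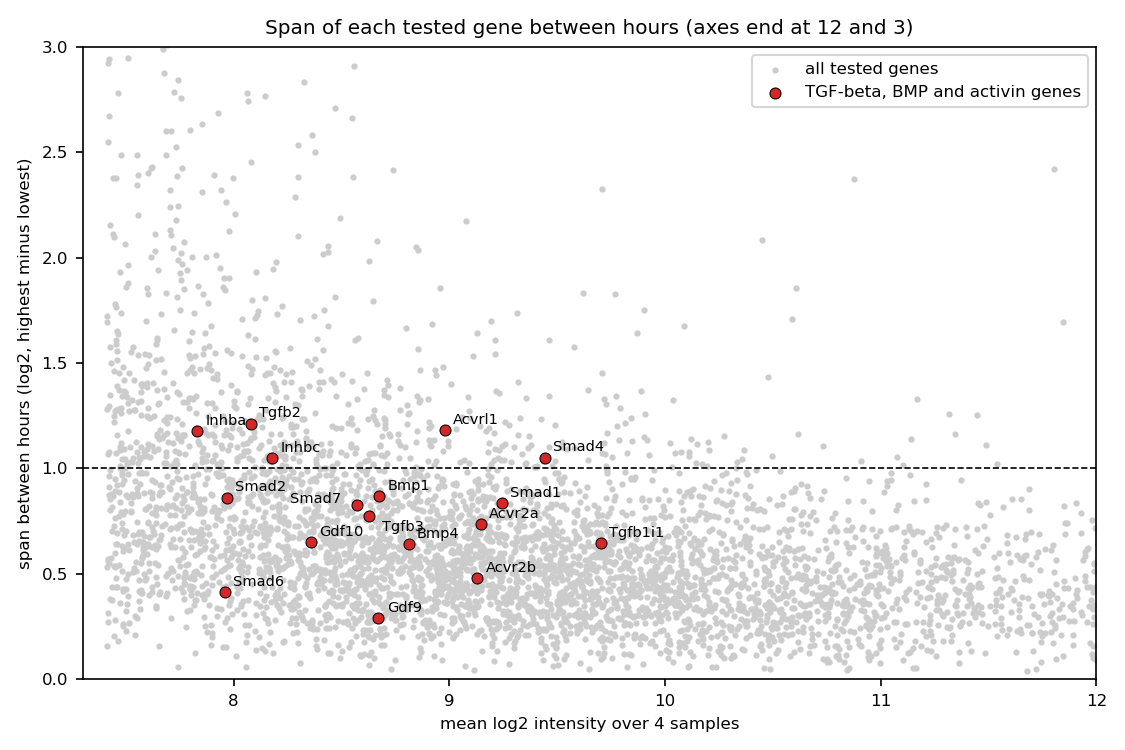
Each point is a tested gene, with its mean log2 intensity over the 4 samples on the x axis and its log2 difference between highest and lowest hour on the y axis, where the dashed line marks 2-fold. Tgfb2, Inhba, Inhbc, Acvrl1 and Smad4 lie above the line, and the other 12 labelled members lie below it.

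Among the TGF-beta ligands, Tgfb2, which encodes an isoform needed for heart and skeletal development and made by neurons and astrocytes, had intensities of 415.6, 179.3, 314 and 228.4. The 1 h value was the highest and the 2 h value the lowest, 2.32-fold apart around a mean of 284.3 ± 103.7 (SD, n = 4). Its slope of −0.08 ± 0.12 log2 per h (SE) had a 95% interval of −0.33 to 0.17. Without the 1 h sample the slope was 0.09. Tgfb3, a ligand of palate and lung development, read 295.2, 437.7, 504.5 and 378, with its peak at 4 h and a mean of 403.9 ± 89 (SD, n = 4). Its span was 1.71-fold. All values of a second Tgfb3 probe set were below the floor (12.6, 19.8, 8 and 11.8). The probe set of Tgfb1, the main isoform of immune cells and platelets, read 16, 13.1, 40.1 and 15.8, above the floor at 4 h alone.

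Of the activin and inhibin subunits, Inhba encodes the beta A chain, whose homodimer is activin A. Inhba read 277.8, 189.6, 339.4 and 150.3, alternating between higher values at 1 and 4 h and lower ones at 2 and 6 h, and its span was 2.26-fold around a mean of 239.3 ± 85.4 (SD, n = 4). The slope of −0.10 ± 0.12 log2 per h became 0.14 without the 6 h sample. Inhbc, which encodes the beta C chain known mainly from liver, read 349.5, 299.4, 180.8 and 374.2. Its 4 h value was the lowest by 1.66-fold, and the span was 2.07-fold around a mean of 301.0 ± 85.9 (SD, n = 4). Inhba was highest where Inhbc was lowest. Inhbb, the beta B chain, read 13.6, 13.7, 105.1 and 18.8, and Inhbe, the beta E chain of liver, read 28.5, 56, 66.7 and 49.1, and both were under the filter.

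Bmp4, a BMP of dorsal and ventral patterning that is also found in the adult subgranular zone, was the BMP ligand past the filter. It read 354, 409.8, 510 and 552.2, a value higher at each step, with a mean of 456.5 ± 90.8 (SD, n = 4). The slope of 0.13 ± 0.08 log2 per h (95% interval −0.04 to 0.29) was not called by limma (adjusted p = 0.99993). A second Bmp4 probe set did not share the course (60.6, 55.5, 107.4 and 44.7), and with the mean of both the slope was 0.05. Of the GDF ligands, Gdf10, also called BMP3B, read 258, 404.8, 397.6 and 279.4, higher at 2 and 4 h than at 1 and 6 h. Gdf9, best known as a growth factor of the oocyte, read 382.2, 460.2, 376.9 and 416.8, within 1.22-fold, the narrowest span of the tested members.

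The other 8 BMP genes were under the filter. Bmp6 read 31.8, 253.2, 75.3 and 134.1 on its brighter probe set, at least 6.61-fold from the floor to the 2 h value, while a second one peaked at 4 h (26.4, 71.8, 135.9 and 13.4). Bmp5 read 34.2, 146.2, 42.4 and 15.6, and was highest at 2 h like the brighter Bmp6 probe set. Bmp7, a BMP of kidney and choroid plexus development, read 50.8, 62.4, 78.6 and 69.4, within 1.55-fold. For Bmp2 the brightest of 3 probe sets read 91.3, 123.7, 63.5 and 69.7, and another passed the floor only at 6 h (21.2, 18.7, 23 and 102.8). The third was under the floor throughout (13.9, 9.3, 2.9 and 4.4). Bmp8a read 91.7, 99.1, 101.5 and 72.9 and its neighbour in sequence Bmp8b 41.8, 36.2, 26.4 and 46.7. Bmp10, a ligand of the heart, read 64.1, 82.8, 151.3 and 26.8, and Bmp15, an oocyte factor, 32.3, 67.7, 137.2 and 23.4. Both were highest at 4 h and under the floor at 6 h. The 3 remaining GDF genes stayed at or under 124.3: Gdf5 read 100.9, 113.8, 65.3 and 124.3, Gdf3 28.8, 74, 65.9 and 64.1, and Gdf11 19.3, 36.1, 23.2 and 40.2. A second Gdf3 probe set read 63.1, 51, 58.3 and 58.4, highest at 1 h, where the first was lowest.

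**Figure D2:**
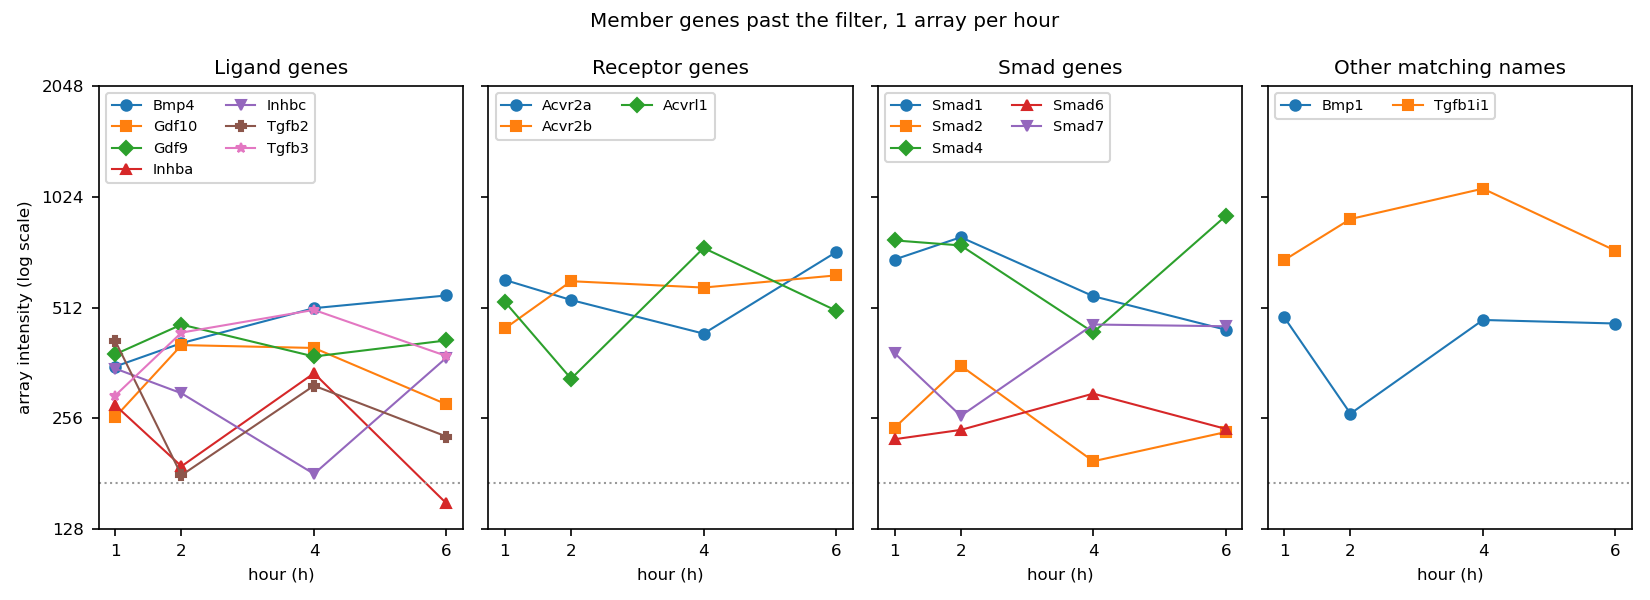
Lines join the array intensities (log scale, y axis) of each tested member gene at 1, 2, 4 and 6 h (x axis), by role, with 1 array per hour and so no error bars; the dotted line is the filter at 170.4. Bmp4 is higher at each step, Inhba and Tgfb2 have their lower values at 2 and 6 h, and Inhbc and Smad4 dip at 4 h.

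Of the receptors, both type II receptors of activin were past the filter. Acvr2a read 608.4, 536.7, 434.9 and 724.2, lowest at 4 h and 1.67-fold higher at 6 h, with a mean of 576.0 ± 121.7 (SD, n = 4). A second Acvr2a probe set read 198, 195.3, 211.8 and 115.2 and was lowest at 6 h, where the first was highest. Acvr2b read 449.2, 603.7, 580.2 and 626.1, within 1.39-fold. Acvrl1 encodes ALK1, a type I receptor of endothelial cells for BMP9 and BMP10, and its brightest probe set read 530.6, 328, 743.2 and 502.3, a span of 2.27-fold with the peak at 4 h and a mean of 526.0 ± 170.3 (SD, n = 4). Its other 2 probe sets read 236.4, 386.3, 284.9 and 362, highest where the first was lowest, and 155.2, 170.7, 202.6 and 144.2, so the span of Acvrl1 rests on 1 of 3 probe sets. Among endothelial and mural cell markers, 6 of 13 with a probe set were tested, and the summed intensity of all 13 was 3465, 3567, 3795 and 2659. The part of these cells in the Acvrl1 values was not tested, and in whole tissue fewer cells of a type and less RNA per cell cannot be told apart.

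The remaining 7 type I and type II receptors and the co-receptor Tgfbr3 were under the filter. Bmpr2, the type II receptor of BMPs, came nearest, with 284.3, 24.7, 159.9 and 252.6. Its values at 1, 4 and 6 h lay between 159.9 and 284.3, and the 2 h value lay under the floor, so the span was at least 7.42-fold. Tgfbr3, or betaglycan, which presents TGF-beta 2 to its receptors and binds inhibin, read 141.8, 37.2, 53.4 and 187.5, at least 4.9-fold. Its 1 and 6 h values were above those at 2 and 4 h. Tgfbr1 read 5.9, 8.2, 63.9 and 5.5 and Tgfbr2 9.6, 91.9, 83.9 and 30.3, so the type I receptor of TGF-beta passed the floor only at 4 h. Acvr1 passed it only at 1 h (135.1, 26.1, 28.2 and 27.7), and Acvr1b, or ALK4, the type I receptor of activin, read 56.6, 56.1, 188 and 116.9. The BMP type I receptors read 62.5, 8.3, 50.7 and 6.1 (Bmpr1a) and 34.9, 88.6, 78.7 and 88.9 (Bmpr1b). A low intensity of a probe set is no measure of absence, since each probe set binds its target with its own strength.

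**Figure D3:**
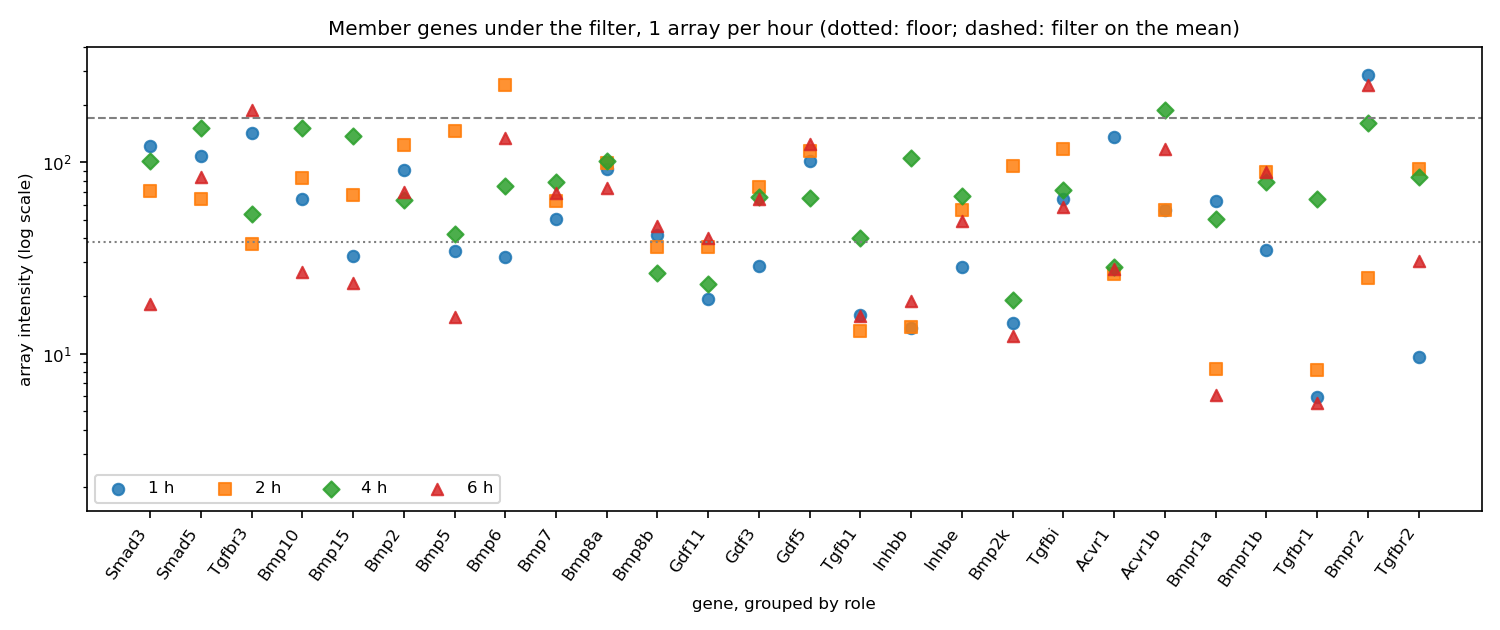
Array intensities (log scale, y axis) of the 26 member genes under the filter, with 1 point per hour and gene; the dotted line is the floor at 38.3 and the dashed line the filter at 170.4. Bmp6 at 2 h, Acvr1b at 4 h, Tgfbr3 at 6 h and Bmpr2 at 1 and 6 h are the points above the dashed line.

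Of the 7 Smad genes, 5 were past the filter. Smad4, the common partner of the receptor-regulated Smads, read 779.4, 755.1, 438.3 and 908.2. Its 4 h value was below the other 3, the next being 1.72-fold higher, and the span was 2.07-fold around a mean of 720.2 ± 199.6 (SD, n = 4). The slope was 0.00 ± 0.09 log2 per h, or −0.29 without the 6 h sample. Smad2, of the TGF-beta and activin branch, read 241.4, 355.6, 195.7 and 234.9, highest at 2 h and lowest at 4 h, 1.82-fold apart. Smad1, of the BMP branch, read 691.5, 794.9, 549.6 and 445.7. It had the steepest slope of the tested members, −0.15 ± 0.07 log2 per h (95% interval −0.31 to 0.00), which limma did not call (unadjusted p = 0.0516, adjusted p = 0.99993). A second Smad1 probe set was likewise highest at 2 h and lowest at 6 h (466.8, 522.4, 476.8 and 417), over 1.25-fold in place of 1.78-fold.

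Of the inhibitory Smads, Smad6, which acts mainly on BMP receptors, read 224.6, 238.1, 298.8 and 239.6, a span of 1.33-fold around a mean of 250.3 ± 33 (SD, n = 4). Smad7, which acts on TGF-beta and BMP receptors, read 384.9, 259.9, 460.4 and 455.4, lowest at 2 h, with a mean of 390.1 ± 93.4. Both had their highest value at 4 h, the hour at which Smad4, Smad2, Inhbc, Gdf9 and Acvr2a were lowest. Smad3 (121.6, 71.1, 101.7 and 18.2) and Smad5 (107.3, 63.9, 151.5 and 83.7), the receptor-regulated Smads under the filter, did not share a course.

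The last 4 members match by name and act elsewhere. Bmp1 encodes a metalloproteinase that cleaves procollagen and chordin, and it read 481.8, 263.6, 473.7 and 463.3. The 2 h value stood apart from the other 3, which lay between 463.3 and 481.8, but a second Bmp1 probe set was highest at 2 h (294.7, 375, 315.2 and 267.2). Tgfb1i1, or Hic-5, a focal adhesion protein first found as TGF-beta 1 induced, read 689, 890.9, 1077.4 and 730.9, with a 1.56-fold span and a peak at 4 h. Tgfbi, an extracellular matrix protein, read 64.6, 117, 71.9 and 58.6 on its brighter probe set. A second Tgfbi probe set passed the floor only at 4 h (9.8, 12.7, 61.4 and 16). The kinase gene Bmp2k read 14.4, 95.1, 19.1 and 12.3 and passed the floor only at 2 h.

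Probe sets of the same gene seldom shared their highest hour, among the members as over the whole array. Of the 10 member genes with more than 1 probe set, 5 had at least 2 probe sets above the floor on all arrays (Acvr2a, Acvrl1, Bmp1, Bmp4 and Smad1). In 1 of these 5, Smad1, all such probe sets were highest at the same hour, where the share of all genes of this kind on the array was 27.7%. With 5 genes, the members cannot be set apart from that share. Both Smad1 probe sets were designed from the same database record. The probe sets of Acvrl1 and of Bmp4 are numbered in sequence on the array as those of Smad1 are, and were not all highest at the same hour. The part of a shared record in such agreement was not tested.

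**Figure D4:**
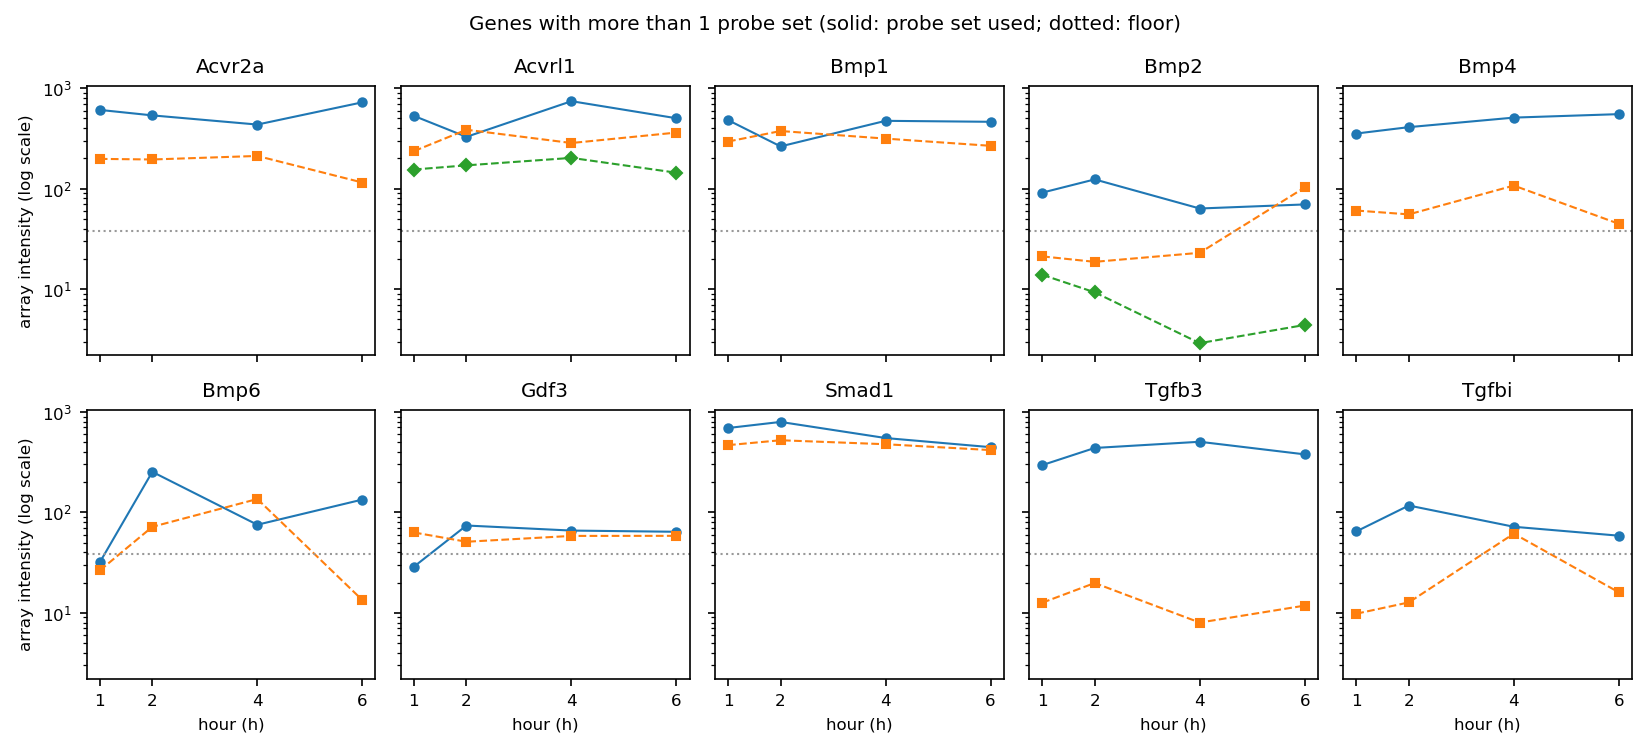
Array intensities (log scale, y axis) by hour (x axis) for the 10 member genes with more than 1 probe set; the solid line is the probe set used for the gene, dashed lines are the others and the dotted line is the floor at 38.3. The Smad1 lines run alike, while those of Bmp1 at 2 h and of Acvr2a at 6 h go opposite ways.

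The 4 h array held the highest value for 6 of the 17 tested members (35.3%) and the lowest for 5 (29.4%), against 31.4% and 29.2% of all tested genes, so these counts lie near the background. Under the filter, 10 of 26 member genes (38.5%) were highest at 4 h, near the 39.3% of all genes there. The lower quartile of all probe sets was 51.3, 52.2, 62.3 and 48.3, higher at 4 h than on the other arrays. Tgfb1, Tgfbr1, Inhbb, Bmp10 and Bmp15 were among the members under the filter with a 4 h peak, and the part of the array in those peaks was not tested. The median tested gene lay 0.02 log2 above its other hours at 4 h as deposited and −0.17 with arrays scaled to their median, and the median of the 17 members was 0.28 and 0.09. With that scaling, Acvrl1 and Inhba came to 1.99-fold and 1.96-fold, under the threshold, and Smad2 to 2.06-fold, above it. With quantile normalization the 4 h medians were 0.01 for all tested genes and 0.17 for the members. Acvrl1 and Inhba then stayed above the threshold at 2.23-fold and 2.05-fold, and Smad2 was at 2.06-fold.

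Marker genes set the tissue in which these values were read. All 9 granule cell markers with a probe set were past the filter, against 60% of all genes. So were all 10 astrocyte markers and 6 of 7 markers of CA field pyramidal and mossy cells, so this count does not set granule cells apart. Ncdn and Cck were the brightest genes of the list chosen for granule cells, and how far either is particular to these cells was not tested. Prox1, which specifies granule cells, read 184.2, 153.5, 182 and 249.1. The summed intensity of the granule cell list was 54696, 50962, 55065 and 52085. Most of it came from Ncdn (mean 34615.0) and Cck (mean 10585.2), so the sum is no measure of granule cell content. The CA field list summed to 8501, 7891, 9136 and 6712. Summed intensities of astrocyte markers were 89318, 83826, 83954 and 89671, and those of microglia markers 8008, 8559, 7667 and 8599. Markers of choroid plexus and meninges, which lie next to the hippocampus, summed to 6665, 10279, 11639 and 7826 over 11 genes, of which 7 were tested, and Igf2 and Col1a2 were the brightest. The 4 h maximum of that sum came from Ttr, a choroid plexus gene of the list singled out after its values were seen, which read 81.3, 233.6, 2408.1 and 191.2. Without Ttr the other 10 genes summed to 6584, 10046, 9231 and 7635, highest at 2 h. The largest term of that 2 h sum was Igf2, with 1849.1, 4402.2, 2954.6 and 2520.8 on its brighter probe set. The other Igf2 probe set, near or under the floor, had no 2 h peak (11.1, 18, 39.1 and 22.7). With or without Ttr, the sum is therefore no measure of the content of these tissues. Dcn, Bgn, Col1a1 and Col1a2 stand in this marker list and in the pathway lists alike. The part of these tissues in the 4 h values of Tgfb3, Acvrl1 or Smad6 was not tested.

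Other genes of the pathway came from 3 lists of 94 different genes, of which 70 had a probe set and 44 were past the filter. None of the 44 had an adjusted p under 0.05 with limma, and 1 had an unadjusted p under 0.05. Slopes were positive for 19 and negative for 25, from −0.21 to 0.24 log2 per h. A span over 2-fold was found in 14 (31.8%), beside the 15% of all tested genes, and that count was 8 without the 1 h sample and 7 without the 4 h sample. The median span of 1.45-fold was close to the 1.47-fold of all tested genes.

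Secreted and cell-surface modulators held 7 of these 14 among 13 tested genes. Noggin (Nog), an antagonist that binds BMPs and is known to favour dentate neurogenesis, read 187.1, 209.4, 398.2 and 103.7, a 3.84-fold span between 4 and 6 h. Nbl1, or DAN, another secreted BMP antagonist, ran the other way, with 457.5, 357.3, 158.2 and 533.2, lowest at 4 h by 2.26-fold. Lefty1, which encodes an inhibitor of Nodal, read 203.1, 240.3, 381.2 and 442.7, higher at each step. Its slope of 0.24 ± 0.09 log2 per h had an unadjusted p of 0.0239 and, with limma over all genes, an adjusted p of 0.99993, while a second Lefty1 probe set lay under the floor. Twsg1, a BMP-binding protein, read 268.6, 407.6, 545.8 and 367.5, the latent TGF-beta binding protein Ltbp3 271.6, 148.6, 348 and 367.2, and Fstl1 185.6, 264.7, 381.7 and 290.4. Decorin (Dcn), a proteoglycan that binds TGF-beta, read 599.7, 1257.1, 701.4 and 964.1. The brightest genes of the list were Itgav and Ltbp4. Itgav, a chain of the integrins that release latent TGF-beta, read 1737.5, 1918.9, 1397.4 and 1513.7 on its brightest probe set, within 1.37-fold. Its other probe sets read 318.7, 75.4, 161.4 and 127.2, over 4.23-fold, and 105.1, 61.2, 157.2 and 23.1, over at least 4.1-fold, so the narrow span holds for 1 of 3. The latent TGF-beta binding protein Ltbp4 read 969.2, 734.9, 1193 and 913.1, within 1.62-fold. Follistatin (Fst), which binds activin, read 93, 67.3, 70.6 and 167.2 and Inha, the inhibin alpha chain, 110.6, 207.1, 77.8 and 94.4, both under the filter.

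Intracellular modulators held 2 of the 14 among 13 tested genes. The repressor Tgif2, which joins TGF-beta activated Smads, read 332.2, 449.3, 72.4 and 264.8, lowest at 4 h by 3.66-fold, and spanned 6.21-fold. Caveolin 1 (Cav1), which takes part in receptor uptake, read 179.3, 233.4, 339.8 and 123.6, and a second probe set did not share the 4 h peak (11.9, 105.6, 28.3 and 110.6). The brightest genes were Fkbp1a, whose protein FKBP12 holds type I receptors inactive, at 12006, 13373.9, 13595.4 and 15126.6, and Hgs, an endosomal adaptor, at 3668.9, 3165.7, 3681.5 and 3404.5, within 1.16-fold.

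Transcriptional targets held 5 of the 14 among 19 tested genes: Junb, Cdkn1a, Snai2, Tagln and Timp1. Junb, an AP-1 subunit that also answers to neuronal activity, read 378.6, 221.7, 94.5 and 379.2, a 4.01-fold span with the lowest value at 4 h. A second Junb probe set read 98, 55.4, 44.2 and 48.2. Its 4 h value was the lowest by 1.09-fold only, and it did not share the return at 6 h. Cdkn1a, which encodes the cell cycle inhibitor p21, read 273.4, 296.5, 83.7 and 318.3, a 3.8-fold span, but its second probe set had no 4 h dip (170.6, 236.3, 185.5 and 178.1) and spanned 1.39-fold. The Id genes, direct targets of BMP Smads that block bHLH factors, stayed closer together. Id2 read 4005.3, 4501, 2812.8 and 4543.4, lowest at 4 h, over 1.62-fold. Id1 (291.3, 356.3, 245.9 and 325.1) and Id4 (1585.6, 1577.3, 1216.1 and 1587.4) were also lowest at 4 h, while Id3 (826.5, 1019.8, 877.9 and 806.8) was lowest at 6 h. Other tested targets, namely Col1a1, Col1a2, Hes1, Hey1, Msx1 and Tagln, were highest at 4 h on the probe set used. Of all tested genes, 29.2% were lowest and 31.4% highest at 4 h, so the lows named here mark no common drop of the targets. Col1a2, a collagen chain and the brightest target beside Id2, read 2551.2, 2295.5, 3089.6 and 2522, within 1.35-fold, while its second probe set read 39.9, 215.9, 43.2 and 60.9, over 5.41-fold.

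**Figure D5:**
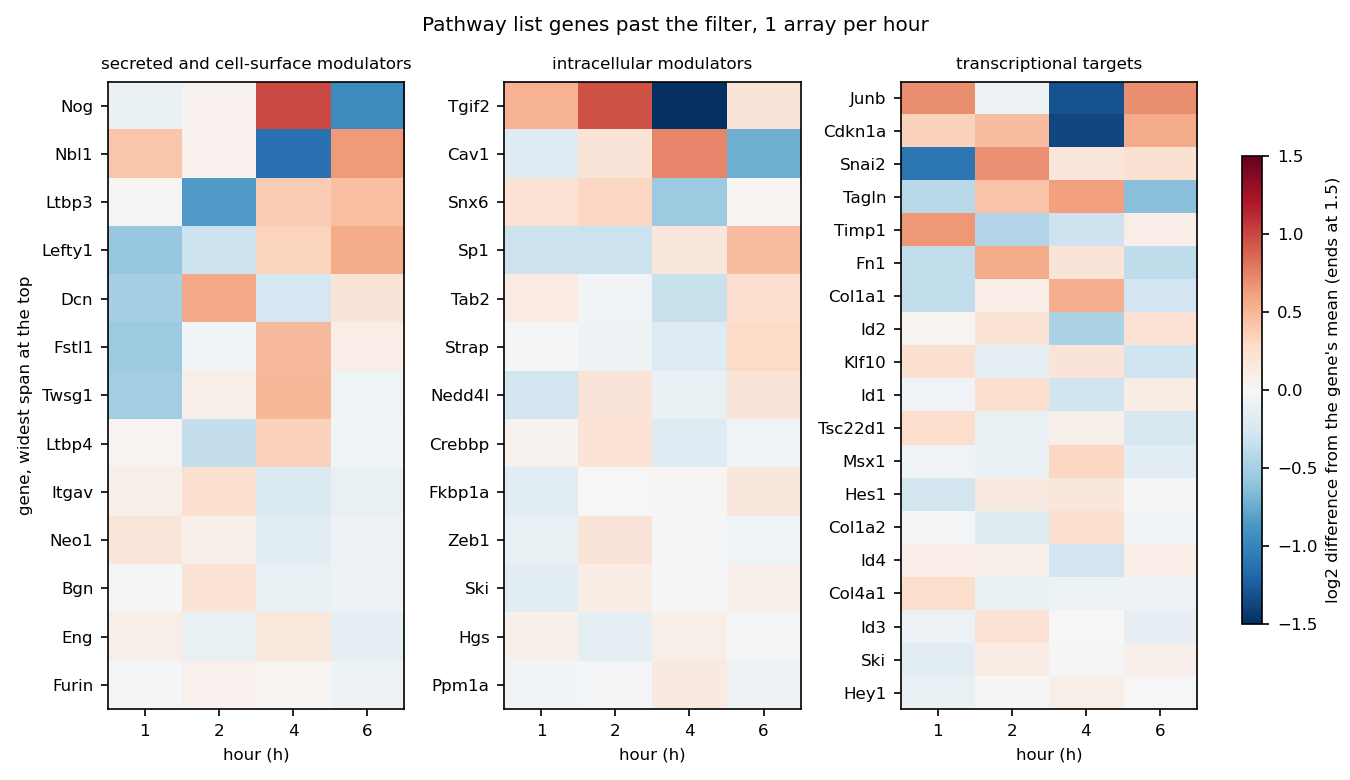
Rows are the tested genes of each pathway list on the probe set used, widest span at the top, and columns the 4 hours; colour is the log2 difference of an array from the gene's own mean, red higher and blue lower. Nog is high and Nbl1, Tgif2, Junb and Cdkn1a are low at 4 h, and most rows below are pale. The 4 h dips of Junb and of Cdkn1a each rest on 1 of 2 probe sets.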

How the data were processed

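The deposited table gives, for every sample, a linear array intensity of each probe set; how the authors made and scaled these is not given in the sources used here. They were used as deposited. Members, lists and tests were chosen with earlier results of these data known. Probe sets were named from GEO's platform annotation, and all 55 members matched RefSeq (GRCm38.p6) by gene identifier; 1 probe set shared by Gdf1 and another gene was left out. For each gene the brightest probe set by mean log2 was used, after intensities under the 20th percentile (38.3) were set to it. Genes with a mean at or above the 40th percentile of gene means were tested for a linear trend on the hour with limma 3.58.1 in R 4.3.3 (lmFit, eBayes with an intensity trend, residual degrees of freedom 2, prior 10.4 in the median), adjusted over 4951 genes. The fit was also run on simulated data, whose outcome is not given here and is no support for the counts above. The p-values and standard errors rest on the scatter of 4 samples about the line, which limma draws toward that of other genes. They are therefore not the spread of a gene's own samples alone. That scatter may be technical, and the number of arrays limits precision. A span is the highest over the lowest hour; where a value lay under the floor it is a lower bound. Given in full were members over 2-fold, the 15 brightest tested members and those with several probe sets, and from each pathway list the 2 with the widest span and the 2 brightest. The other list genes, the Id genes among them, were chosen after their values were seen. Alternatives were other scalings, floors, filters, probe set rules and each sample left out.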

Additional observations from a re-analysis of the deposited data

Results flagged for a closer look

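Bmp1 was the tested member gene with a sample far from the others. On the log2 scale the gap between its 2 h value and the nearest other value was 0.935 of the whole range of the 4 samples, above the critical value of Dixon's test at the 95% level. It read 481.8, 263.6, 473.7 and 463.3, and its second probe set was highest at that hour. Chance puts about 1 in 20 such groups past the critical value, and 17 genes were examined.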

How the results depend on the processing

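With 1 array per hour, all member values at an hour rest on 1 sample. The count of members with a called trend was 0 under every alternative run, as was that of the pathway lists; over all genes it was 13 without the 1 h sample and 3 without the 6 h sample, from lines through 3 arrays, and 0 under the other alternatives, testing every probe set on its own (added after seeing the data) included. The count of members over 2-fold was 19 of 43 without a filter and 6 of 23 with every probe set counted on its own. Of the 17 tested members it was 3 with log2 of intensity plus 32, 14 over 1.5-fold, 0 over 3-fold and 1 to 4 with a sample left out. Over all genes it was 2652 of 8251 without a filter and 1406 of 6500 with every probe set on its own. Of the 4951 tested genes it was 570 with log2 of intensity plus 32, 2300 over 1.5-fold, 177 over 3-fold and 377 to 529 with a sample left out. For the pathway lists it was 27 of 70 without a filter and 7 to 12 of 44 with a sample left out. More genes are counted without a filter and fewer samples give narrower spans by construction; the cause of the other differences was not tested. Of 17 member slopes, 9 moved by more than the scatter of the samples without the 6 h sample and 7 without the 1 h sample, and 0 under another scaling or floor. No paired analysis was possible because the samples form 1 group.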
